A study of Vitis vinifera with 12 samples.

Results

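The comparison concerns where 2 grapevine (Vitis vinifera) NAC transcription factors, CARPO and NAC03, bound the same genomic DNA. All events of the CARPO list and all events of the NAC03 list made with leaf DNA and title number 500 were taken, 19063 of the 44889 events in the 7 lists of the series. CARPO, also labelled NAC60, had 14786 events and NAC03 had 4277. The assay was DNA affinity purification followed by sequencing (DAP-seq). In it, an immobilised factor is mixed with fragmented genomic DNA, the unbound DNA is washed away, and the retained fragments are amplified and sequenced. A binding event is the single position to which the event caller assigned a local excess of reads.

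Both groups shared the cultivar, Syrah, the young-leaf DNA, pooled from fruiting cuttings, and the HALO affinity tag on the factor. Both factors were translated outside cells, in a lysate of rabbit reticulocytes. The DNA was stripped of protein before use, so the events describe what a factor binds on naked DNA. They do not show the effect of chromatin proteins, of partner proteins or of binding inside the cell. The number 500 stands in the sample titles without a unit. The CARPO list was called from 2 libraries together, and the NAC03 list came from 1 library. The series also holds HALO-GST control samples, 3 in all, which were not analysed here.

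NAC proteins are a large family found in plants, named after the founding genes NAM, ATAF and CUC. They bind DNA, usually as dimers, through a conserved N-terminal NAC domain, while the C-terminal part differs between members and acts on transcription. Family members act in organ formation, senescence, fruit ripening and stress responses. The series title links CARPO to the start of organ maturation and of fruit ripening in grapevine.

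Each condition had 1 list. There was therefore no spread between replicate lists, and no difference between the factors was tested. Shares are given with exact Clopper-Pearson 95% intervals, which treat events as independent and cover counting error only. The lists hold no read totals, so the depth behind each list is unknown, and a missing partner can be an event that fell below the calling threshold. The strength of an event is a value the authors deposited, and it served here to rank or describe events inside a single list. The deposited starts and event positions were raised by 1, so that bases are counted from 1. Positions are otherwise given as deposited, because the genome build is not given in the sources used here. Gene names and bound sequences are not given for the same reason.

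Within 100 bp, most NAC03 events had an event of the longer CARPO list beside them, while most CARPO events had no NAC03 event beside them. An event of the other list within 100 bp is called a partner. Of the 4277 NAC03 events, 3094 had a CARPO partner (72.3%, interval 71.0% to 73.7%) and 1183 (27.7%) had none. The share with a partner depended on the distance and on the length of the CARPO list: it was 49.2% within 3 bp and 46.3% with only the strongest 4277 CARPO events kept. Of the 14786 events of CARPO, 3181 had a partner in the NAC03 list (21.5%, interval 20.9% to 22.2%) and 11605 (78.5%) had none. With the reduced CARPO list the share was 46.7%. The shares of 72.3% and 21.5% are the background against which the classes of events below are read.

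The match was almost always a single event to a single event. A NAC03 event had exactly 1 CARPO event within 100 bp in 2958 cases, 2 in 135 cases and 3 in 1 case. Conversely, 3131 CARPO events had 1 NAC03 event in reach and 50 had 2. In 3073 pairs each event was the nearest of the other. Where 2 or more CARPO events lay within 100 bp of a NAC03 event, the outermost of them were 18 to 172 bp apart, with a median of 73.0 bp. Within a list such close neighbours were few. Of successive CARPO events on a sequence, 1.19% were at most 100 bp apart, and of successive NAC03 events 0.846%.

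Most of the 10 strongest events of each list had a partner in the other list. All 10 of the 10 strongest NAC03 events had a CARPO partner, against 72.3% of all NAC03 events. Of the 10 strongest CARPO events, 8 had a NAC03 partner, against 21.5% of all CARPO events. Among the strongest 50 the numbers were 39 for NAC03 and 33 for CARPO. The NAC03 events of ranks 4 and 7 were close neighbours on chromosome 9, at 20833344 and 20833409. The best matched pair lay on chromosome 13, where the NAC03 interval ran from 12022997 to 12023197 and ranked 2, with a strength of 4350.8. Its CARPO partner, 17 bp away at position 12023114, ranked 5 with a strength of 5151.2. This place was also the strongest event of NAC33, the other NAC factor of the series, on leaf DNA with title number 500. Neither CARPO on leaf DNA with title number 1000 nor CARPO on berry DNA had an event there.

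At the next 2 pairs the CARPO event ranked higher in its list than the NAC03 event in its own. On chromosome 11, NAC03 at 19741319 ranked 3 (strength 2595.2) and CARPO at 19741325 ranked 2 (strength 9519.4). On chromosome 9, NAC03 at 20833344 ranked 4 (strength 2549) and CARPO at 20833339 ranked 1 (strength 11804.7). Both places also held the 2 strongest events of CARPO with title number 1000 and of CARPO on berry DNA, in ranks 1 and 2, and neither held a NAC33 event.

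The strongest NAC03 event had a lower rank for CARPO. It ran from 12468817 to 12469017 on chromosome 1, with a strength of 4757, and its CARPO partner 7 bp away ranked 14 with a strength of 2547. NAC33 ranked it 3. The pair on chr00, a sequence outside the numbered chromosomes, lay 1 bp apart at 7155534 for NAC03 (rank 5) and 7155535 for CARPO (rank 4). The other 5 of the 10 strongest NAC03 events lay on chromosomes 17, 9, 5, 18 and 10, with CARPO partners 0 to 38 bp away that ranked 3 to 48.

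**Figure D1:**
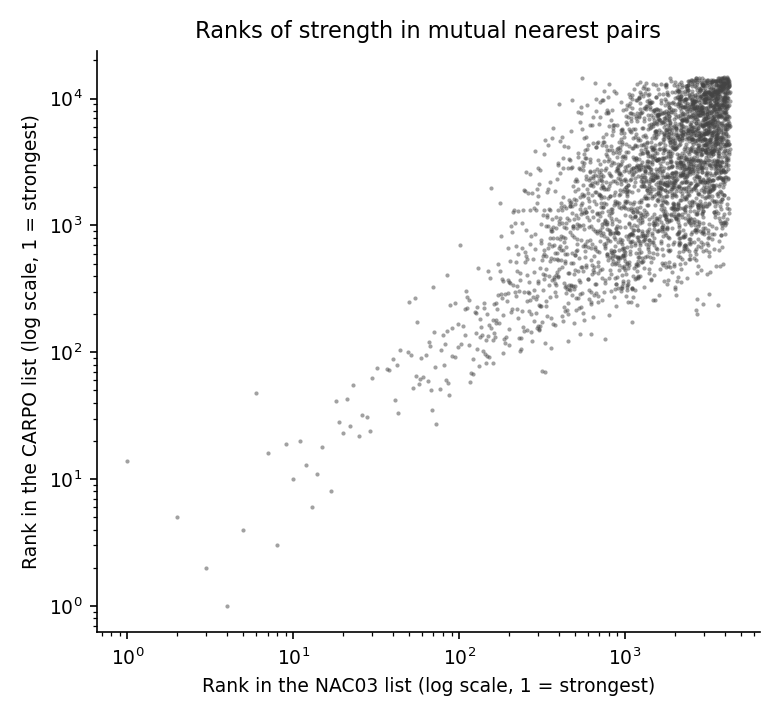
Rank of event strength in the NAC03 list (horizontal, log scale) against the rank in the CARPO list (vertical, log scale) for the 3073 mutual nearest pairs, each point being 1 pair and rank 1 the strongest event. Among these pairs the strongest events of both lists lie together at the lower left. The cloud widens towards weak NAC03 events, whose partners cover most of the CARPO list (Spearman rho 0.60). Events without a partner are not shown.

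Events that were strong for NAC03 tended to be strong for CARPO, with wide scatter. Over the 3073 mutual pairs the Spearman rho of strength was 0.60. This is a description across sites, which share their genomic position and the same leaf DNA, and carries no test. For NAC03 events in the strongest quintile of their list (the strongest of 5 classes of equal size), the median CARPO partner ranked 659 of 14786, and 633 of 723 partners (87.6%) were in the strongest CARPO quintile. In the weakest NAC03 quintile the median CARPO rank was 6383, with 21.9% of the 461 partners in the strongest CARPO quintile and 16.9% in the weakest. In all, 1630 of the 3073 pairs had their CARPO member in the strongest CARPO quintile and 167 in the weakest. Weak NAC03 events were thus paired with CARPO events of every strength, whereas strong NAC03 events were paired with the weakest CARPO quintile in 3 of 723 cases.

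Events of equal strength were ordered by position. When both lists were reduced to the same length, the share in common fell slowly with that length. Of the strongest 10 events of NAC03, 7 had a partner among the strongest 10 of CARPO. At 100 events each the number was 57 (57.0%, interval 46.7% to 66.9%), at 1000 it was 516 (51.6%, interval 48.5% to 54.7%) and at 4277 it was 1980 (46.3%, interval 44.8% to 47.8%). Most strong events had a partner somewhere in the other full list even where that partner was weaker. The shares of all events with one were 72.3% for NAC03 and 21.5% for CARPO. Of the strongest 100 NAC03 events, 75 had a partner in the whole CARPO list. Of the strongest 100 CARPO events, 70 had one in the whole NAC03 list. Among the strongest 250 the shares were 74.8% for NAC03 and 77.2% for CARPO. At 100 and 250 events the NAC03 values were thus close to the share of all NAC03 events. Among the strongest 500 the shares were 83.2% and 82.4%, and among the strongest 2000 they were 82.0% and 64.3%. Read from the other side, the strongest 1000 CARPO events held a partner for 803 of the 4277 NAC03 events (18.8%) and the strongest 2000 for 1283.

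Stronger events more often had a partner, and the gradient was far steeper along the longer CARPO list. The 4277 NAC03 events can partner only a part of the 14786 CARPO events, and no gradient was taken at equal list lengths. The steepness therefore cannot be read as a difference between the factors. Each list was divided by strength into 10 classes of equal size (deciles). In the strongest decile of CARPO events, with strengths from 70 to 11805, 1068 of 1478 had a NAC03 partner (72.3%, interval 69.9% to 74.5%). The share was 40.7% in the second decile and 24.7% in the third decile. It was 5.34% in the weakest decile (79 of 1479, interval 4.25% to 6.61%). CARPO events with a NAC03 partner had a median strength of 49.7, and those without had 27.0. Their median −log10 q-values, the authors' significance of an event on a scale where higher is more certain, were 8.97 and 3.64.

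Along the NAC03 list the share fell from 89.7% in the second decile (384 of 428, interval 86.4% to 92.4%) to 47.9% in the weakest (205 of 428, interval 43.1% to 52.7%). NAC03 events with a CARPO partner had a median strength of 21, against 17 for those without, and median −log10 q-values of 3.19 and 2.47.

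**Figure D2:**
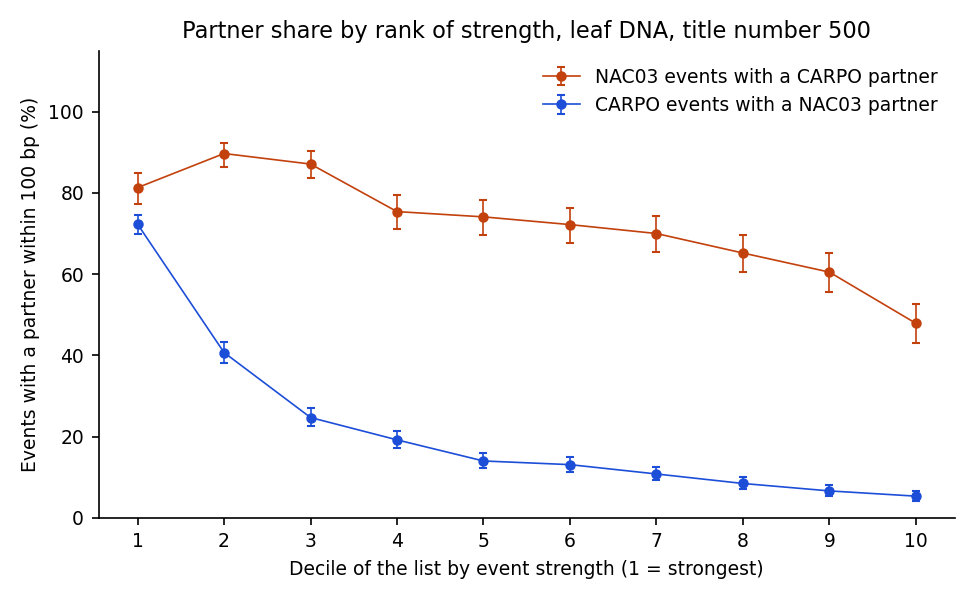
Share of events with a partner within 100 bp (vertical, percent) in each decile of a list ordered by event strength (horizontal, 1 the strongest), with exact 95% intervals as bars. CARPO events fall from 72.3% to 5.34%, whereas NAC03 events start at 81.3%, peak at 89.7% in the second decile and end at 47.9%. The lists differ in length (14786 CARPO and 4277 NAC03 events), which limits a comparison of the slopes.

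The strongest NAC03 decile broke this order, at 81.3% (347 of 427, interval 77.2% to 84.9%). It also held many more events on chr00 than any other decile, 104 of 427 (24.4%) against 1.40% to 3.50%. Within the strongest decile, 65 of the 104 chr00 events had a CARPO partner (62.5%, interval 52.5% to 71.8%), against 282 of 323 on the numbered chromosomes (87.3%, interval 83.2% to 90.7%). On the numbered chromosomes alone the second decile stood at 90.2% (interval 87.0% to 92.9%), so those intervals overlapped. The part of chr00 in the lower value of the strongest decile was not tested. In the CARPO list the strongest decile gave 70.9% on chr00 and 72.4% on the numbered chromosomes.

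Partner events were placed 1 bp apart far more often than at the same base. Of the 3094 NAC03 events with a partner, 1875 (60.6%, interval 58.9% to 62.3%) lay 1 bp from the CARPO position, 169 (5.46%) lay 2 bp away and 13 (0.420%, interval 0.224% to 0.717%) were at the identical base. The median distance was 1 bp. The 1 bp offsets were divided evenly between the sides: CARPO had the higher coordinate in 920 and the lower in 955 (49.1% higher, interval 46.8% to 51.4%). Distances of at most 10 bp made up 76.7% of partners, and 5.59% were over 50 bp. The limit of 100 bp lay in the sparse tail of the distances. Just inside it, 22 NAC03 events had their nearest CARPO event 91 to 100 bp away, and just outside it 21 had one 101 to 110 bp away. The next step, 111 to 120 bp, held 8.

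**Figure D3:**
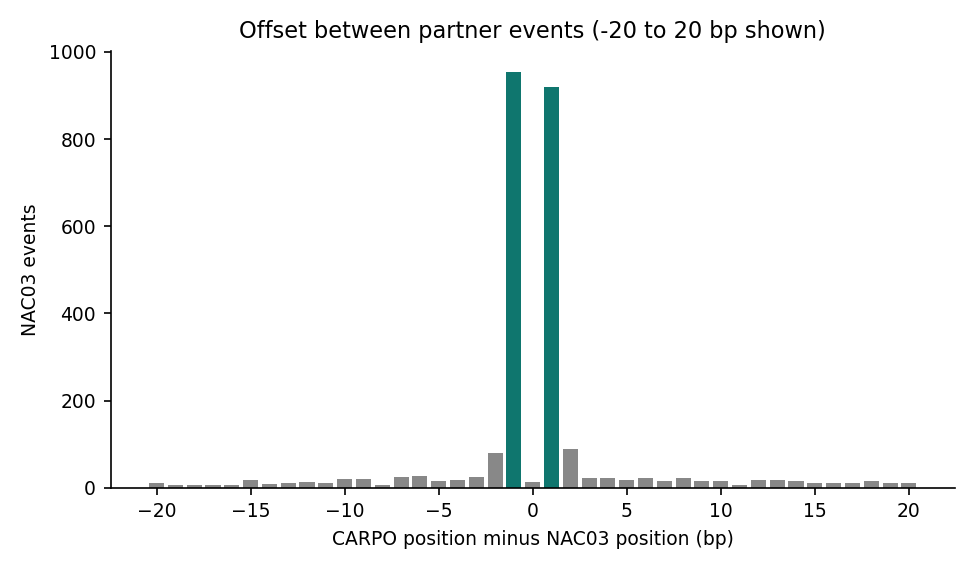
Number of NAC03 events (vertical) by the CARPO position minus the NAC03 position in bp (horizontal, from -20 to 20 bp). The bars at -1 bp (955 events) and 1 bp (920 events) stand above all others, and the bar at 0 bp holds 13 events.

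The 1 bp spacing was found at all strengths, in 53.9% of the partners of the strongest NAC03 decile and in 56.0% to 64.9% of those of the other deciles. It was found in 49.6% of the partners on chr00 and in 61.1% on the numbered chromosomes. At the named strongest places the distances were often larger, 7, 17, 6, 5 and 1 bp for the NAC03 events of ranks 1 to 5. Set against the other CARPO lists, NAC03 events lay 1 bp from 57.4% of their partners in the list with title number 1000 and at the same base as 45.0% of their partners in the berry list. The preferred distance therefore differed between lists of 1 factor.

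Most NAC03 events without a partner had their nearest CARPO event more than 1000 bp away. Of the 1183, 90 (7.61%) had their nearest CARPO event between 100 and 200 bp away, 65 between 200 and 500 bp and 69 between 500 and 1000 bp. A further 263 (22.2%) had it at up to 5000 bp, 408 (34.5%) at up to 20000 bp and 288 (24.3%) beyond that. The median distance was 7258 bp. For the 11605 CARPO events without a NAC03 partner, the nearest NAC03 event was at a median of 32862 bp, and 7312 (63.0%) had it beyond 20000 bp. The CARPO list is the denser one, with a median spacing of 16745 bp between neighbours against 55267 bp for NAC03.

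The strongest NAC03 events without a CARPO partner ranked 16, 24, 33, 34 and 35. The first, on chromosome 8 from 3571430 to 3571630 with a strength of 724, had a CARPO event of rank 13 at a distance of 673 bp. The other 4 lay on chromosomes 6, 6, 17 and 13, with strengths of 488.7, 382, 381 and 378.5, and their nearest CARPO events were 10808 to 30275 bp away. None of the 5 was found in the CARPO list with title number 1000 or in the CARPO berry list. The event on chromosome 13, from 1009754 to 1009954, matched rank 5 of NAC33 on leaf DNA with title number 500.

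The strongest CARPO events without a NAC03 partner included a group of 3 on chromosome 9. They lay at 21158565, 21158735 and 21158833, with strengths of 2418.8, 2484.6 and 4413.5 and ranks of 17, 15 and 7. The nearest NAC03 event was at least 12870 bp away, and none of the 3 was found in the other CARPO lists or in the NAC33 list. An event on chromosome 14 from 30191959 to 30192159 (rank 9, strength 3339.9) ranked 17 for CARPO with title number 1000. An event on chromosome 12 from 7215112 to 7215312 (rank 12, strength 2854) ranked 19 there and had a NAC03 event of rank 29 at 1359 bp. Neither of these was in the berry list.

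NAC03 events that lacked a CARPO partner mostly lacked one in the other CARPO lists too. The list of CARPO with title number 1000 on leaf DNA has 9170 events and that of CARPO on berry DNA with title number 500 has 3757, each from 1 library. Of all NAC03 events, 52.8% had a partner in the former and 37.8% in the latter, and 56.5% in at least 1 of them. The share was 75.2% for NAC03 events with a partner in the CARPO list with title number 500 on leaf DNA (2328 of 3094, interval 73.7% to 76.8%). Among those without it was 7.44% (88 of 1183, interval 6.01% to 9.08%). With a partner distance of 25 bp more NAC03 events lacked a partner, and the value was 13.5% (214 of 1591). For NAC03 events with a −log10 q-value of 4 or more it was 13.0% (17 of 131). The list of NAC33 on leaf DNA with title number 500 has 5870 events. It held a partner for 25.5% of NAC03 events with a CARPO partner and for 12.9% of those without (22.0% of all NAC03 events). A partner in at least 1 of these 3 lists was found for 219 of the 1183 events (18.5%), against 2720 of all 4277 NAC03 events (63.6%), and 964 (81.5%) of the 1183 had none.

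Among the strongest quintile of NAC03 events, 124 had no CARPO partner, and 42 of them (33.9%) lay on chr00, against 112 of all 855 events of that quintile (13.1%). Their median strength was 62.9, above the 41.4 of the events with a partner in the same quintile. In the other 4 quintiles the medians with a partner were equal to or above those without. Of the 124, 14 (11.3%, interval 6.31% to 18.2%) had a partner in the CARPO berry list and 6 (4.84%, interval 1.80% to 10.2%) in the longer CARPO list with title number 1000. Of the 14, 6 lay on chr00. Among all 1183 NAC03 events without a CARPO partner, the shares were 3.13% in the berry list and 5.07% with title number 1000. Among all NAC03 events they were 37.8% and 52.8%. The value of 4.84% was thus close to that of all NAC03 events without a CARPO partner.

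CARPO events with a NAC03 partner were found more often in the other lists. Of all CARPO events, 7400 (50%) had a partner in at least 1 of the other CARPO lists, 75.6% of those with a NAC03 partner (interval 74.0% to 77.1%) and 43.1% of those without (interval 42.1% to 44.0%). Because events with a NAC03 partner were stronger, the shares were also taken within quintiles of the CARPO list. In the strongest quintile they were 95.5% with and 90.5% without a NAC03 partner, and in the weakest 22.6% and 15.6%. In every quintile the difference was smaller than over the whole list. The median strengths in the strongest quintile were 82.0 with and 61.4 without, so strength was matched only roughly there, and in the weakest quintile both were 18.0.

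In the strongest CARPO quintile, the berry list showed a wider gap between the 2 kinds of CARPO event than the list with title number 1000 did. There, 78.4% of the events with a NAC03 partner (interval 76.4% to 80.4%) and 52.6% of those without (interval 49.8% to 55.4%) were found on berry DNA, against 22.6% of all CARPO events. With title number 1000 the values in that quintile were 92.4% and 87.6%, against 46.9% of all CARPO events. The berry list is the shorter one, with 3757 events against 9170. In that quintile the events with a NAC03 partner were also stronger (median 82.0 against 61.4). The part of list length and of strength in the wider gap was not tested.

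Sites of NAC33 followed the same division at all strengths. A NAC33 event lay within 100 bp of 25.5% of CARPO events with a NAC03 partner (812 of 3181, interval 24.0% to 27.1%) and of 4.14% of those without (481 of 11605, interval 3.79% to 4.52%), against 8.74% of all CARPO events. The shares were 29.5% and 5.91% in the strongest quintile and 19.2% and 3.56% in the weakest. The events with a NAC03 partner ranged from 18.2% to 29.5% over the quintiles and those without from 3.56% to 5.91%. Whether these places are also retained by the HALO-GST control was not tested.

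**Figure D4:**
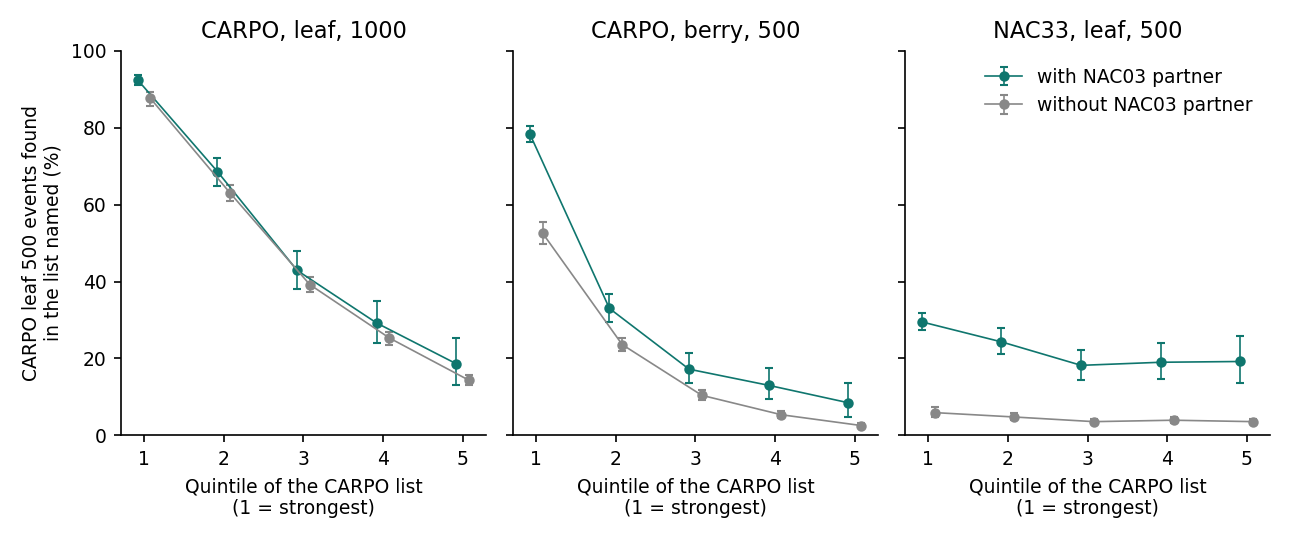
Share of CARPO leaf 500 events found within 100 bp in each of 3 other lists (vertical, percent) by quintile of the CARPO list (horizontal, 1 the strongest), for events with and without a NAC03 partner, with exact 95% intervals as bars. The gap is small for CARPO with title number 1000 (92.4% and 87.6% in the strongest quintile), wider on berry DNA (78.4% and 52.6%) and present in every quintile for NAC33 (19.2% and 3.56% in the weakest). In the strongest quintile the events with a NAC03 partner were stronger (median 82.0 against 61.4), and the lists differ in length.

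Of the 20 sequences, the 19 numbered chromosomes held both factors in similar proportions, while chr00 held relatively more NAC03 events. On the 19 numbered chromosomes there were 3.13 (chromosome 10) to 4.05 (chromosome 12) CARPO events per NAC03 event, and on chr00 there were 2.24. Chromosome 18 held the most events of both, 1303 of CARPO and 414 of NAC03. Chromosome 8 was the densest of the sequences, with 42.9 CARPO and 12.9 NAC03 events per Mb of the span up to its last event. Chromosome 16 was the sparsest of the numbered chromosomes, with 22.0 and 5.53. In 449 windows of 1 Mb the numbers of both lists had a Spearman rho of 0.86, given as a description. The windows held a median of 28 CARPO and 7 NAC03 events, and the fullest held 82 and 34.

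The share of NAC03 events with a CARPO partner ranged from 62.4% on chr00 to 80.6% on chromosome 11. Of the 20 intervals, 3 left out the share of all NAC03 events, which was 72.3%. These were chr00 (62.4%, interval 55.3% to 69.2%), chromosome 16 (63.8%, interval 55.0% to 72.1%) and chromosome 11 (80.6%, interval 74.2% to 86.1%). For CARPO the share ranged from 16.4% on chromosome 12 to 29.0% on chr00, and 5 of the 20 intervals left out the 21.5% of all CARPO events. The higher CARPO share on chr00 was not seen when the strongest decile and all other events were taken apart. Within the strongest decile it was 70.9% on chr00 and 72.4% on the numbered chromosomes, and among all other CARPO events 13.8% and 15.9%. Strength still varied widely inside these broad classes, and its part in the chr00 share was not tested. The strongest decile held 117 of the 442 CARPO events on chr00 and 1361 of the 14344 elsewhere.

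**Figure D5:**
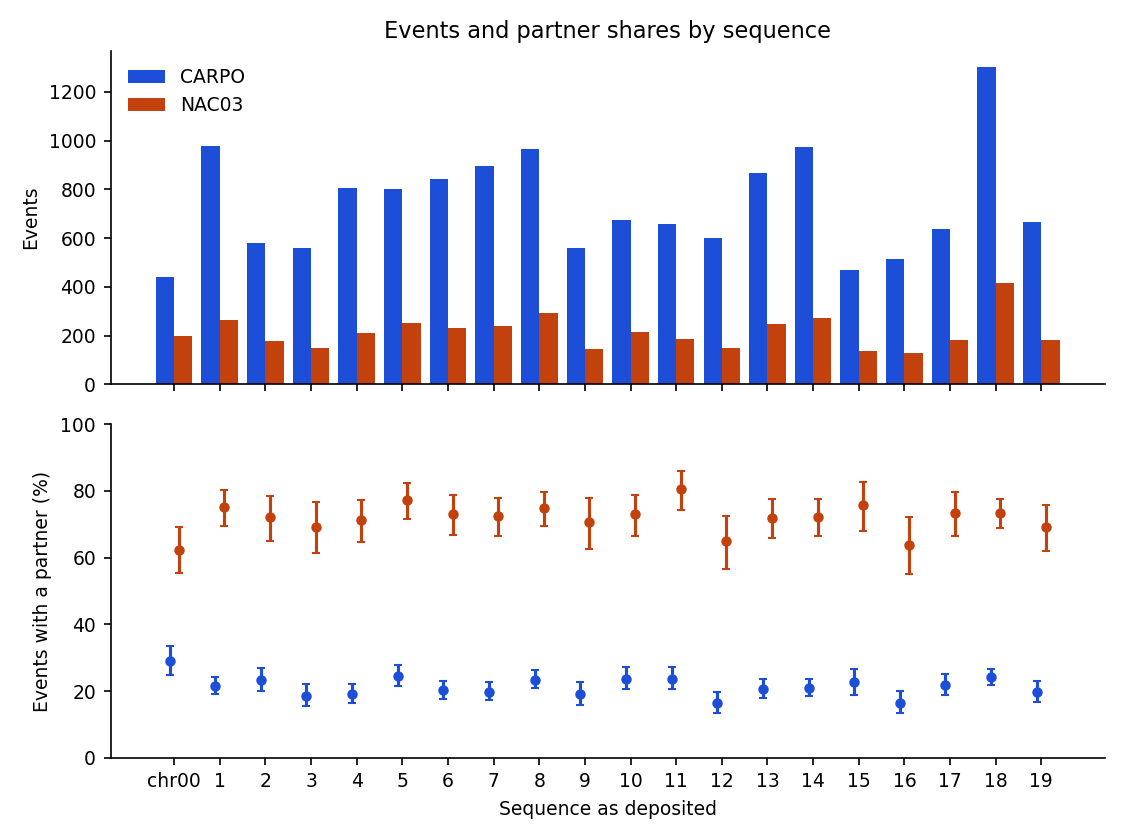
Events per sequence (upper panel) and share of events with a partner in the other list (lower panel, percent, exact 95% intervals as bars) for CARPO and NAC03 on the 19 numbered chromosomes and chr00. Chromosome 18 has the most events of both factors (1303 and 414), and chr00 has the lowest NAC03 share (62.4%) and the highest CARPO share (29.0%).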

How the data were processed

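Per the submitters' processing notes, the reads were processed with fastp 0.21.0 and Bowtie2 2.0. GEM, the event caller, is known only from how the files are named. The genome build, the control and the filters are not given in the sources used here. Per the labels, the CARPO list was called from 2 replicates together. The deposited lists have no header and use decimal commas. The deposited score is a straight-line rescaling of the deposited strength (largest residual 0.564 for NAC03 and 0.502 for CARPO). The deposited −log10 p-values and q-values were identified from their values, are capped at 999, and start at a −log10 q-value of 2.00. All intervals were 201 bp wide.

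Partners were the nearest events within 100 bp on the same sequence. Distances are between event positions, and strength was ranked within a list, with ties ordered by position. Named events are the 10 strongest of each list, the 5 pairs with the best mean rank percentile, and the 5 strongest events of each list without a partner. The members, rules and comparisons were chosen with earlier results of these data known. Matching was tested on 20 simulated pairs of lists with a planted share of 30%, which was recovered as 30.2% to 30.6% (4277 NAC03 and 14786 CARPO events). Python 3.11.15, numpy 2.4.6 and scipy 1.17.1 were used. Alternatives were partner distances of 3, 25, 50 and 250 bp, any overlap of intervals, mutual nearest events, a −log10 q-value of at least 4, equal list lengths, numbered chromosomes only, merging within 500 bp and ranking by p-value.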

Additional observations from a re-analysis of the deposited data

How the results depend on the processing

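The share of NAC03 events with a CARPO partner (72.3%) was 49.2% at 3 bp, 62.8% at 25 bp, 68.3% at 50 bp, 74.8% at 250 bp, 74.4% with any overlap of the intervals, 84.1% with a −log10 q-value of 4 or more in both lists, 46.3% with the CARPO list cut to the length of the NAC03 list and 70.0% after merging within 500 bp. The share of CARPO events with a NAC03 partner (21.5%) was, in the same order, 14.2%, 18.2%, 19.9%, 22.9%, 22.7%, 13.2%, 46.7% and 20.7%, and 20.8% with each event used once. Distance and list length act here by construction. That stricter threshold left 1163 NAC03 and 7758 CARPO events. The fall in share from the strongest to the weakest quintile was 35.9 percentage points for NAC03 when ranked by p-value (31.3 by strength) and 44.5 for CARPO at 25 bp (50.5 at 100 bp). The share of partners 1 bp apart (60.6%) was 69.8% at 25 bp and 58.6% at 250 bp, because the number of partners changed and the 1875 pairs did not. The rank correlation (0.60) was 0.49 by p-value. The share of NAC03 events without a partner that were found in another CARPO list (7.44%) was 13.5% at 25 bp, where 1591 events lacked a partner. It was 13.0% with the stricter threshold set on the NAC03 list only. The gap in recurrence between CARPO events with and without a NAC03 partner (32.5 percentage points) was 36.3 at 25 bp. It was 17.7 with the stricter threshold set on the CARPO list only. The cause was not tested except where stated. The falls in share with strength, the rank correlation and the gap in recurrence kept their direction under the alternatives run. The majority of NAC03 events with a CARPO partner did not hold at 3 bp (49.2%) or with the CARPO list cut (46.3%). With the cut list the shares of both lists were alike (46.3% and 46.7%).

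No paired analysis was possible because the CARPO replicates entered a single joint call and NAC03 had 1 library, which also prevented leaving out a replicate. Unknown read depth, and the different number of libraries behind each list, limit every comparison of list lengths and of missing partners.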
